A study of Rubus occidentalis with 14 samples.

Results

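The 200 genes described here varied least in transcript level over 14 RNA-seq libraries of black raspberry (Rubus occidentalis) fruit from 5 stages. They were chosen from 33253 gene identifiers in the authors' table by their measured values. A gene entered the choice when its mean normalised count lay between 200 and 2000 in every stage, which 4489 genes did. These were ranked by the SD of log2(normalised count + 1) over all 14 libraries, and the 200 lowest were taken. Each of the stages numbered 1, 2, 3 and 5 was sampled in 3 libraries and stage 4 in 2, all from field-planted fruit of an advanced selection named NC 349. The titles number the stages, and the library names add the letters Gr, Re, So, Tu and Bl for stages 1 to 5. Neither describes the fruit further, and the labels do not say how plants or fruits were divided among the replicates. In the stages with 3 libraries, replicates 2 and 3 carry the same code in their titles and replicate 1 another. The spread between libraries, on which the p-values rest, may thus be partly technical. In whole fruit fewer cells of a type and less RNA per cell cannot be told apart.

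Genes with a level transcript abundance serve as internal references in RT-qPCR, where other transcripts are expressed relative to them. RNA-seq measures each transcript as a share of a library, so a level transcript is level only with respect to the scaling chosen. Median-of-ratios scaling, as in DESeq2, sets the median gene of each library level. Scaling to the total of reads sets the sum level, and a few very abundant transcripts can then move the values of every other gene. The deposited values are of the median-of-ratios kind, and both scalings are given here.

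No gene is given a function here. The identifiers come without gene names, so genes could not be grouped by role, common reference genes such as actin or ubiquitin could not be looked up, and the tissue label was not checked against marker genes. The libraries held 7576338 to 39938265 reads, recovered from the deposited values. The fewest reads of any member in a library were 71, for Ro02_G35484 in stage 5 replicate 2. All 200 members passed the filter on low values, and 19234 genes did so in all.

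The members had a median SD of 0.143 on the log2 scale (lowest 0.0858, highest 0.167), and all 4489 genes of the level window had a median of 0.368 (highest 2.06). These values chose the members and are given as a description. The values on both sides of the threshold were close. Ro06_G16334 and Ro03_G20668, the last 2 members, had SDs of 0.16664 and 0.16687, and Ro01_G04240 and Ro03_G06960, the next 2 genes, had 0.16689 and 0.16713. These neighbours differed in how the spread was made up. Ro01_G04240, just outside, stood at 875 ± 49.3 normalised counts in stage 5 and 690.1 ± 23.4 in stage 1 (SD, n = 3 each). Its SD within stages was 0.101. Ro06_G16334, just inside, had stage means of 896 to 1089 but an SD within stages of 0.169, with 851, 1096 and 1318 in the stage 3 libraries. The window also kept genes out. Among tested genes outside it, 51 had an SD no higher than that of rank 200, 34 of them with a stage mean above 2000 and 17 with one below 200.

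**Figure D1:**
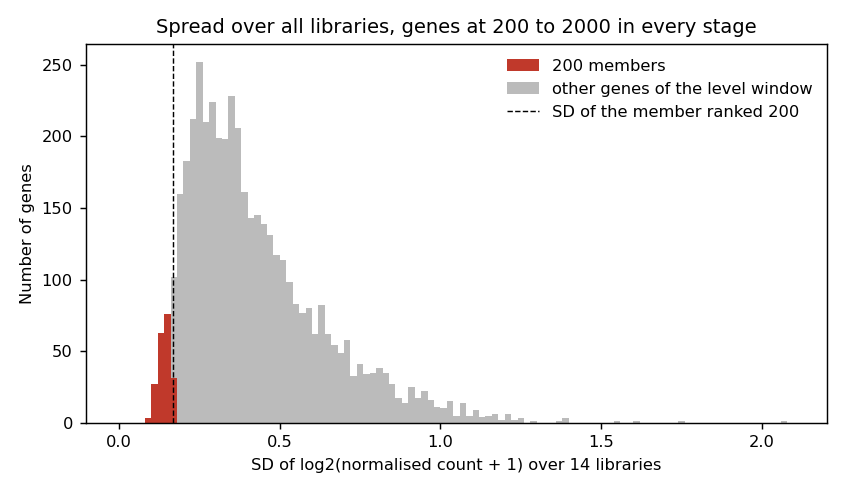
Histogram of the SD of log2(normalised count + 1) over 14 libraries (x axis) for the 4489 genes with every stage mean between 200 and 2000, with the number of genes on the y axis. The 200 members (red) end at an SD of 0.167, marked by the dashed line, left of the median of 0.368, and the other genes are in grey.

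The member with the lowest SD was Ro02_G35819. Its normalised counts were 951, 1121 and 1061 at stage 1, 943, 1049 and 1059 at stage 2, 1061, 1066 and 1162 at stage 3, 1021 and 1030.0 at stage 4, and 1064, 1012 and 956 at stage 5. The stages overlapped, and the highest library was 1.23 times the lowest. Its SD was 0.0858, with 0.0878 within stages and 0.0471 between the 5 stage means. Ro06_G14392 had 1007, 1199.5 and 1203 at stage 1, 1192, 1014 and 1160.3 at stage 2, 1043, 1081 and 1095 at stage 3, 1059.8 and 1061 at stage 4, and 1097, 1208 and 1175 at stage 5. The libraries of stages 3 and 4 were close together here, and those of stages 1 and 2 were spread over most of the range of the gene. Ro05_G17777, next in rank, had 713, 619 and 629 at stage 1, 686, 692 and 769 at stage 2, 776, 653 and 697 at stage 3, 685 and 716 at stage 4, and 644, 724 and 684 at stage 5. No stage stood apart from the others.

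Of the remaining 7 among the 10 lowest, 2 lay near the low end of the window. Ro06_G25713 averaged 262 ± 18.5 normalised counts over the 14 libraries (SD), and Ro01_G03011 averaged 281 ± 20.2. Ro06_G25713 had 233 to 282 in stages 2 to 5 and 283, 284 and 284 in the stage 1 libraries, so every later library lay below those of stage 1. Ro03_G17270 averaged 411 ± 30.5, Ro06_G11346 averaged 413 ± 29.3 and Ro05_G31388 averaged 462 ± 32.7. Ro05_G31388 had its highest stage mean in stage 4, at 488 ± 18.9 (n = 2), and its lowest in stage 1, at 423 ± 19.7 (n = 3). Ro03_G04974 and Ro04_G00352 were measured with the most reads of the 10, at 1411 ± 99.8 and 1514 ± 107 normalised counts. Ro04_G00352 stood at 1442 ± 119.5 in stage 5 and 1624 ± 51.6 in stage 1 (n = 3 each), and its libraries of these 2 stages did not overlap.

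**Figure D2:**
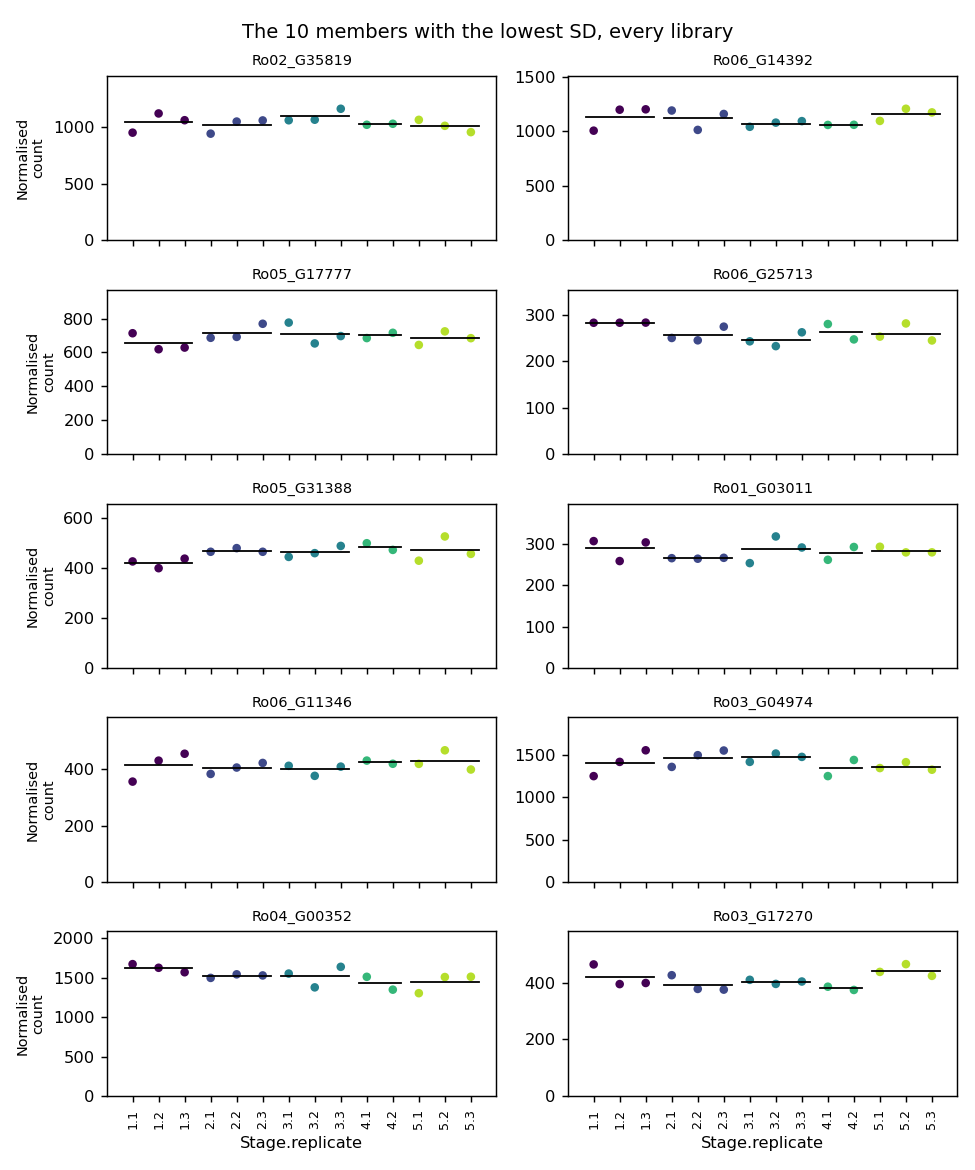
Normalised count (y axis, linear from 0) of the 10 members with the lowest SD in each of the 14 libraries (x axis, stage and replicate number), coloured by stage, with a bar at each stage mean. For Ro02_G35819, at the top left, the points lie between 943 and 1162 in all stages.

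Over the 200 members the highest library was 1.41 times the lowest in the median gene (lowest ratio 1.199, highest 1.62). In 179 members it was under 1.5 times, which held for 249 genes of the window, members included (5.55%). The 5 stage means of a member spanned 1.19-fold in the median (lowest 1.06, highest 1.35), and those of a window gene 1.81-fold. Within stages the median SD was 0.116 for the members and 0.174 for the window. The median SD of the 5 stage means was 0.105 for the members and 0.351 for the window. A stage mean averages 2 or 3 libraries, so replicate spread alone would give stage means a smaller SD than single libraries. The 2 SDs are thus not on a like scale. The SD within stages was the larger of the 2 in 119 members, and in 661 of the 4489 window genes (14.7%). Choosing on the SD fixes these differences from the window, and they are not tested.

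Replicates were not equally close in every stage. From stage 1 to stage 5 the members' median SD within a stage was 0.112, 0.0866, 0.102, 0.0640 (2 libraries) and 0.117. In the window it was 0.164, 0.128, 0.156, 0.0927 and 0.177 over the same stages. The closest replicates were thus those of stages 4 and 2 in both sets of genes. The members Ro04_G36184 and Ro04_G16126 had the largest SDs within stages, 0.176 and 0.173. Ro04_G36184 had 312, 321 and 319 normalised counts in stage 5 and 393, 266 and 285 in stage 1. The stage 1 libraries enclosed those of stage 5. Ro04_G16126 had 549 and 504 in stage 4 and 653, 463 and 542 in stage 2, which enclosed them. Such genes entered the list through level stage means and not through close replicates.

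Part of the spread was counting error. From the recovered reads, counting alone would give the members a median SD of 0.0647, and a median of 21.4% of their variance (lowest 6.01%, highest 99.96%). In the window the median counting SD was 0.0675 and the median share 3.28%. The share divides by the variance on which the members were chosen, so its difference from the window was fixed by the choice. The share was at least 50% in 17 members. Ro06_G25713 had 91 to 889 reads per library, and its SD of 0.102 equalled its counting SD of 0.102. For Ro01_G03011 counting made up 91.5% of the variance, for Ro06_G11346 60.96% and for Ro03_G17270 59.96%. For the members with the fewest reads, ranking at these depths therefore could not separate a small spread from counting error. The SD within stages lay at or below the counting SD in 9 members, and in 34 genes of the window. Choosing the lowest SDs favours such genes. Ro04_G00352 and Ro03_G04974, with 538 to 5248 and 510 to 4685 reads, had counting shares of 16.4% and 17.97%. Reads of a library without molecular identifiers are not independent molecules, and these figures cover counting error only.

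The members covered the whole level window. A mean of 200 to 400 normalised counts was found for 46 members, 400 to 800 for 82, 800 to 1200 for 37 and 1200 to 2000 for 35. These were 5.16%, 4.01%, 3.40% and 7.54% of the window genes at those levels. The members' median SD was 0.144, 0.143, 0.140 and 0.138 in the 4 bands, while the counting share had medians of 41.9%, 23.4%, 13.5% and 9.36%. The choice by SD held the total near one size in every band, and the counting part falls with level by construction, so nothing is read from this. Normalised counts are not divided by gene length, so levels of different genes are not compared. The members with the highest mean count were Ro05_G24286, at 1729 ± 149.9, and Ro02_G10106, at 1724 ± 196 (SD, 14 libraries). Ro05_G24286 had 2032, 1806 and 1962 in stage 2, above each of its stage 1 libraries at 1634, 1621 and 1463. Those with the lowest were Ro02_G35484, at 219 ± 22.2, and Ro06_G25476, at 230.5 ± 23.5.

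By identifier prefix the members were spread over all groups of the table. The prefix Ro01 was carried by 22 members, Ro02 by 30, Ro03 by 36, Ro04 by 23, Ro05 by 31, Ro06 by 32 and Ro07 by 26. These were 11%, 15%, 18%, 11.5%, 15.5%, 16% and 13% of the members, and the same prefixes made up 11.7%, 15.97%, 14.2%, 13.01%, 13.7%, 19.3% and 12.01% of the window.

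The stage with the highest or lowest mean differed among the members. The highest stage mean fell in stage 1 for 46 members, stage 2 for 31, stage 3 for 21, stage 4 for 41 and stage 5 for 61. These were 23%, 15.5%, 10.5%, 20.5% and 30.5% of the members, near the window's shares of 19.2%, 15.5%, 9.24%, 18.2% and 37.8%. The lowest fell in these stages for 25%, 20.5%, 20.5%, 20% and 14% of the members and 42.3%, 18.6%, 9.40%, 11.7% and 18.1% of the window. On the log2 scale the stage means increased at every step in Ro04_G00377 and Ro05_G21777 and decreased at every step in Ro03_G05783 and Ro06_G20949, genes named after their values were seen. In the window 647 genes increased and 178 decreased at every step. Ro05_G21777 had means of 303 ± 3.28, 311 ± 34.1, 349 ± 13.9, 351 ± 24.1 and 383 ± 24.0 normalised counts in stages 1 to 5. Its stage 5 libraries, at 407, 359 and 381, all lay above those of stage 1, at 306, 299.9 and 304. Ro06_G20949 had 1110.5, 1526 and 1207 at stage 5 and 1197, 1618 and 1456 at stage 1, so these stages overlapped. In the same gene the linear means, 1281 ± 217 in stage 5 and 1277 ± 15.2 in stage 4, did not keep the order of the log2 means.

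The ends of the series, stage 5 and stage 1, differed by a median of 0.06 on the log2 scale over the members (lowest -0.28, highest 0.40), and by 0.31 over the window. The members' median was 0.15 under TMM scaling, and negative under upper-quartile scaling (-0.22), quantile normalization (-0.19), equal reads outside the 100 most abundant genes (-0.73) and equal total reads (-1.21). The largest positive differences were in Ro01_G04981 and Ro01_G10750. Ro01_G04981 had 1743, 1576 and 1596 normalised counts in stage 5 and 1300.3, 1219 and 1216 in stage 1, a log2 difference of 0.40. Stages 2, 3 and 4 lay in between, at means of 1427 ± 53.2, 1451 ± 70.6 and 1438 ± 20.2, so this gene had steps at both ends and a level middle. Ro01_G10750 had 1344, 1241 and 1354 in stage 5 and 1003, 1051 and 958 in stage 1, a log2 difference of 0.39. The most negative were Ro05_G04593, at 304 ± 14.7 in stage 5 and 369.7 ± 24.8 in stage 1, and Ro02_G19659, at 549 ± 13.9 and 667 ± 42.9 in the same stages (SD, n = 3 each). Both had a log2 difference of -0.28, with no overlap between the 2 stages.

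By the limma F test over the 5 stages 23 of the 200 members were called at an adjusted p below 0.05, where 86.3% of all 19234 tested genes were. The called members had stage means spanning 0.28 to 0.44 on the log2 scale. Between stage 5 and stage 1 limma called 29 members, where the share over all genes was 78.2%. As deposited, 25 of these were higher in stage 5 (33.4% of all genes) and 4 lower (44.8%), and 14 were also called by the F test. The 4 lower ones were Ro02_G19659, Ro02_G00767, Ro03_G33090 and Ro05_G04593, named after the result was seen. The lower calls numbered 2 without stage 1 replicate 2, stage 1 replicate 3 or stage 5 replicate 3, 1 without stage 5 replicate 1 and 6 without stage 5 replicate 2, and 0 when the libraries of the 2 stages were fitted alone. Over all genes the lower calls in these fits numbered 8293 to 8422 of 19234. After quantile normalization 17 members were called higher and 79 lower, beside 7505 higher and 6662 lower of all 19234 genes. The direction of the members' calls thus differed between the scalings. The 2 stages did not overlap in 41 members with stage 5 above (33.4% of all genes) and in 18 with stage 5 below (45.5%). Since the same 14 libraries chose the members, these counts are descriptions from which nothing is read about the list. The F test called 11 members without stage 1 replicate 2, stage 2 replicate 3 or stage 4 replicate 2, 12 without stage 4 replicate 1, 13 without stage 3 replicate 3, 14 without stage 5 replicate 3, and 15 without stage 2 replicate 2 or stage 5 replicate 2. Over all genes the F test called 16035 to 16490 of 19234 in these fits. The count for stage 5 against stage 1 was 19 without stage 1 replicate 2, beside 14427 of all genes. On the recovered reads the edgeR quasi-likelihood test, which applies TMM scaling, called 31 members over the 5 stages (86.6% of all genes), and DESeq2 called 38 (87.7%). Between stage 5 and stage 1 edgeR called 48 members, all higher in stage 5 (35.5% of all genes). DESeq2 called 32 between these stages, 27 higher and 5 lower in stage 5, beside 6448 higher and 8564 lower of 19192 tested genes.

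No library carried the spread of the list alone. The median deviation of the members from their own means lay between -0.07 in stage 1 replicate 1 and 0.08 in stage 5 replicate 2 on the log2 scale. Stage 5 replicate 2, with 9913885 reads, held the highest value of 38 members, the most of any library. Stage 1 replicate 1, with 35199548 reads, held the lowest value of 27. The 8 libraries with 18482104 or more reads held the highest value of 118 members and the lowest of 112, and the 6 shallower libraries the highest of 82 and the lowest of 88. The members' median size of deviation was 0.0778 to 0.124 in the deeper libraries and 0.0834 to 0.120 in the shallower ones, so the ranges overlapped.

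After scaling to equal total reads the members were no longer level. Their median SD was 0.523, against 0.506 for the window, and the lowest rank of a member by SD was 1438 of 4489. In all 200 the stage 5 libraries lay below those of stage 1 without overlap, as in 72.2% of all genes tested. Their log2 difference between stage 5 and stage 1 had a median of -1.21 (lowest -1.55, highest -0.88), a fold of 0.432 (0.341 to 0.543). The stage means decreased at every step in 148 members (74%), and in 1293 genes of the window (28.8%). By limma the F test called all 200 (91.3% of all genes), and all 200 were called lower in stage 5 (72.6%). Scaling shifts all genes of a library by 1 factor, so for genes chosen to be level as deposited these calls and the absence of overlap were fixed by the choice. The SD within stages stayed near its deposited size, at a median of 0.131, so the added spread lay between stages.

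Scaled in this way and written as RPM, the members' median level was 55.4 ± 1.35, 47.4 ± 3.41, 30.3 ± 1.79, 26.4 ± 0.388 and 24.1 ± 0.614 from stage 1 to stage 5 (SD, n = 3, but 2 for stage 4). In deposited normalised counts the same medians were 630.4 ± 24.9, 639.6 ± 13.8, 626 ± 11.1, 642 ± 3.02 and 664 ± 8.98. The median thus moved little in normalised counts and was lower at each later stage in RPM. As a group the members held 1.28% ± 0.0167, 1.09% ± 0.0767, 0.711% ± 0.0469, 0.611% ± 0.0118 and 0.550% ± 0.0147 of the reads from stage 1 to stage 5. The deposited normalised counts of all genes summed to 2.76e+07 per library in stage 5 and 1.14e+07 in stage 1. Scaling to equal totals divides the normalised counts of a library by this sum, up to a constant. The shift of the members between the 2 scalings thus follows from the sums by construction. Why the sums differed was not tested. Ro02_G35819, the member with the lowest SD, stood at 36.7 ± 1.56 RPM in stage 5 and 91.9 ± 7.47 in stage 1. Level in one unit and lower by more than a factor of 2 in the other, it shows the size of the gap between the scalings for a single gene. The members with the lowest SDs at equal totals were Ro05_G21777, Ro02_G07060 and Ro03_G18939, at 0.392, 0.404 and 0.404. Each of these had a positive stage 5 minus stage 1 difference as deposited, of 0.33, 0.38 and 0.34 on the log2 scale.

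The 200 genes of the window with the lowest SD at equal total reads were a separate list. They shared 0 genes with the members and 0 with the 400 lowest as deposited, and the best deposited rank among them was 2093. Their median SD was 0.165 at equal totals and 0.486 as deposited. As deposited, their stage 5 values exceeded those of stage 1 by a median of 1.16 on the log2 scale (lowest 0.80, highest 1.67). Ro04_G19912 led this list with an SD of 0.0782. It had 45.7 ± 2.16 RPM in stage 5 and 50.6 ± 3.45 in stage 1, while its normalised counts were 1316, 1183 and 1275 in stage 5 and 609, 533 and 586 in stage 1. The next were Ro06_G18831 and Ro06_G06176, with SDs of 0.0897 and 0.0921. Ro06_G18831 had 59.8 ± 2.89 RPM in stage 5 and 58.9 ± 3.55 in stage 1. Ro06_G06176 had 69.0 ± 4.68 RPM in stage 5 and 72.3 ± 4.33 in stage 1.

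**Figure D3:**
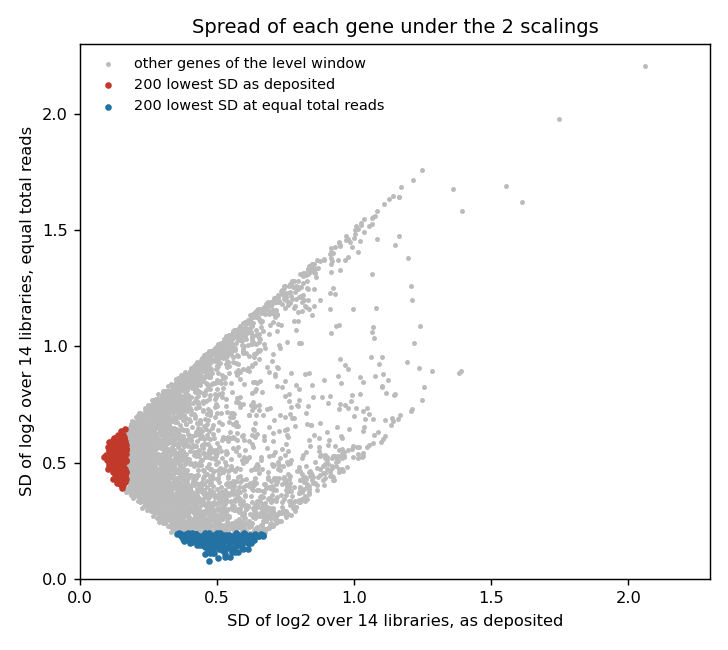
SD of log2 values over 14 libraries for each of the 4489 genes of the level window, as deposited (x axis) and after scaling to equal total reads (y axis). The 200 members (red) lie below 0.167 on the x axis and above 0.39 on the y axis, the 200 genes lowest at equal totals (blue) lie below 0.20 on the y axis and above 0.35 on the x axis, and no gene is in both lists.

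The ratio between 2 genes of a library is the same under any scaling of the library. The geometric mean of the members over that of the genes lowest at equal totals was 1.252 ± 0.0307, 1.06 ± 0.0771, 0.714 ± 0.0443, 0.625 ± 0.00677 and 0.570 ± 0.0113 from stage 1 to stage 5 (SD over libraries). Both lists cannot have been level under any 1 scaling. The SD of the log2 ratio had a median of 0.192 over the 19900 pairs of members, 0.217 over the pairs within the other list and 0.498 over pairs with a gene from each. Over pairs of window genes it was 0.533. Averaged over its ratios to all other window genes, a member had a median SD of 0.443, a gene of the other list 0.546 and a window gene 0.538. Median-of-ratios scaling works on such ratios, and the choice by SD used its values.

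**Figure D4:**
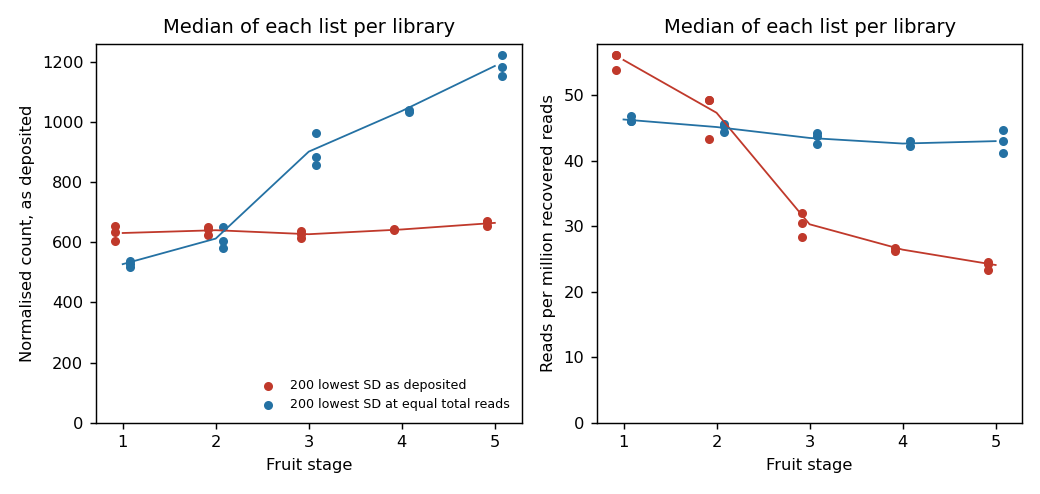
Median level per library of the members (red) and of the 200 genes lowest in SD at equal total reads (blue), with lines through the stage means, in deposited normalised counts (left) and in RPM (right), by fruit stage (x axis). The members lie between 605 and 672 normalised counts in all libraries, and between 23.4 and 56.2 RPM.

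Some pairs of members kept their ratio more closely than either kept its level. Ro01_G10750 over Ro01_G04981 was 0.801 ± 0.0307 (SD, 14 libraries), between 0.760 and 0.862. The SD of its log2 value was 0.0547, and counting alone would give 0.0645. Both genes had SDs near 0.14 and were the 2 with the largest difference between stage 5 and stage 1, so they shared the pattern given above. Ro03_G17270 over Ro03_G10028 was 0.291 ± 0.0126, with an SD of 0.06211 on the log2 scale. Ro02_G01619 over Ro06_G05532 was 0.528 ± 0.0228, with an SD of 0.06215. Ro02_G01619 had stage means of 586 ± 28.8, 610.1 ± 20.02, 690.4 ± 44.9, 767 ± 31.0 and 652 ± 19.7, highest in stage 4, and Ro06_G05532 had the same order of stages at 1092 ± 60.3, 1192 ± 69.8, 1289.7 ± 98.8, 1478 ± 57.4 and 1226 ± 71.6. These pairs were the lowest of 19900 and were picked for that, and all 3 lay below the ratio SD that counting would give.

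Each library was left out of the choice in turn. The 200 genes chosen on the other 13 libraries deviated in the left-out one by a median of 0.101 (stage 3 replicate 2) to 0.175 (stage 5 replicate 2) on the log2 scale. All genes of the window chosen in the same way deviated by medians of 0.208 to 0.413, more than the chosen genes in each of the 14 libraries. The left-out library had still taken part in the authors' scaling, and the other libraries of its stage stayed in the choice. Genes that differed in that stage were thus mostly kept out beforehand. The smaller deviation than in the window was therefore largely fixed by the choice. A deviation above 1 was seen in 1 chosen gene of a single library. Ro05_G30887, which is no member, had 986 normalised counts in stage 4 replicate 2 and 398 to 588 in the others. Between 165 and 184 members were chosen again.

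With a whole stage left out, the chosen genes deviated most in the end stages and least in stages 3 and 4. A stage mean averages over its libraries, so these deviations are not on a like scale with those of single left-out libraries. Genes chosen on the other 4 stages differed in the left-out stage by medians of 0.212, 0.138, 0.106, 0.106 and 0.246 on the log2 scale for stages 1 to 5. In the window the medians were 0.493, 0.315, 0.200, 0.275 and 0.422. The members chosen again numbered 119, 139, 157, 166 and 102. Of the genes chosen without stage 5, 144 were higher and 56 lower in it under the deposited scaling. The share of all window genes on this measure was not counted. By a different comparison, the stage 5 mean lay above the stage 1 mean in 64.6% of the window, so nothing is read from this direction. Among genes chosen without stage 1, 10 of 200 differed in it by more than 1, against 20.7% of the window.

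The farthest of these genes, singled out after their values were seen, were level over 4 stages and apart in the remaining one. Ro06_G09925 had means of 1846 ± 122 to 1976 ± 319 normalised counts in stages 2 to 5 and 542, 641 and 672 in the stage 1 libraries. Ro04_G06346 had means of 449 ± 16.3 to 519.5 ± 26.4 in stages 2 to 5 and 1379, 1453 and 2113 in stage 1. Ro02_G10140, chosen without stage 5, had 728, 943 and 971 in stage 5 and means of 493 ± 43.0 to 536 ± 29.7 before it. Ro03_G15844 had 139, 199.04 and 146 in stage 5 and means of 249 ± 15.03 to 263 ± 35.2 before it. In all 4 genes the libraries of the left-out stage did not overlap those of any other stage. None of the 4 is a member.

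**Figure D5:**
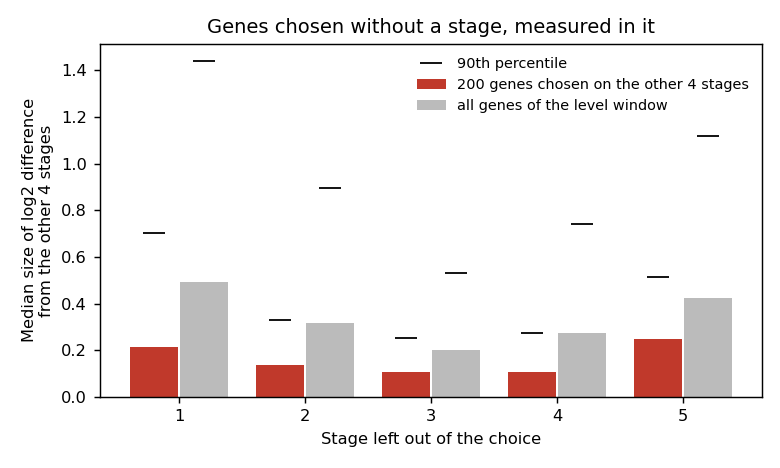
Median size of the log2 difference between a stage and the mean of the other 4 (y axis), for each stage left out of the choice (x axis), in the 200 genes chosen on the other 4 stages (red) and in all genes of the level window (grey), with black marks at the 90th percentile. The red bars are 0.212 for stage 1 and 0.246 for stage 5, and 0.106 to 0.138 for the stages between.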

How the data were processed

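Poly(A) RNA of fruit was sequenced from stranded libraries, per the labels' protocols. The deposited table holds 1 signal per gene and library. From the values, each is a read count of the authors divided by a size factor: 100% of them, in each library, were multiples of the worth of a single read, with a tolerance of 0.01 read, and this gave back the counts. The submitters' processing notes name Trimmomatic, HISAT2 and DESeq2, with no roles or versions. Of the read counter, genome build and annotation nothing is given in the sources used here. Size factors ranged from 0.362 to 3.14. No column was left unused. Pairs of replicates differed by more than sampling noise (chi-square per degree of freedom 12.06 to 133), so none was the same library counted again. The measure cannot tell libraries made from the same fruit from libraries of different fruit.

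The members and tests were chosen with earlier results of these data known. The SD used a pseudocount of 1. Equal total reads divided each gene's reads by the library total. Counting SDs came from the delta method, the inverse of the reads averaged over libraries. Genes with 10 normalised counts in at least 2 libraries were tested with limma 3.58.1 in R 4.3.3 on log2(value + 1), with all 14 libraries in 1 model, a trended prior variance and Benjamini-Hochberg adjustment over all genes. The recovered reads were also tested with edgeR 4.0.16 and DESeq2 1.42.0. The procedure was tested on simulated data. Named genes were the extremes of rank, level, stage difference, spread within stages, spread at equal totals and pair ratio. Genes outside that rule are said to be so. A list of common reference and housekeeping gene products could not be matched to identifiers.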

Additional observations from a re-analysis of the deposited data

How the results depend on the processing

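The list changed most with the scaling. The members' median SD of 0.143 became 0.523 at equal total reads, 0.358 at equal reads outside the 100 most abundant genes of each library and 0.508 with the level window also set at equal totals, where 158 members lay inside it. In these 3 cases 0 members were chosen again. Upper-quartile scaling chose 69 again and quantile normalization 58. TMM scaling chose 162 again, and 22 members were in the lists of all 3 of these last scalings. By the median absolute deviation 102 were chosen again, and by the SD of ratios to other genes 89, with a median of 0.443 on that measure. Leaving out stage 1 or stage 5 gave 119 and 102, and a list of 100 genes by construction 100. Other measures, windows and pseudocounts chose 134 or more again, and a list of 400 all 200. The median stage 5 minus stage 1 difference of 0.06 became -1.21 at equal totals, -0.73 outside the abundant genes, -0.22 with upper quartiles and -0.19 with quantiles, and the median range of stage means of 0.26 became 1.23, 0.83, 0.38 and 0.42. Without single libraries the members chosen again numbered 165 to 184, the median SD was 0.139 to 0.145, within stages 0.108 to 0.118, the stage difference 0.03 to 0.08 and the range 0.26 to 0.27. The F test called 23 members, 11 to 23 without single libraries, 200 at equal totals, 102 with quantiles and 38 with DESeq2. It called 10 with a model term for the opening letters of the title codes and 7 with an untrended prior variance. Over all 19234 genes it called 16591, 16035 to 16530 without single libraries, 17552 at equal totals and 15985 with quantiles. The all-gene counts were 16835 of 19187 with DESeq2, 15901 with the title-code term and 16407 with the untrended prior. Stage 5 against stage 1 called 29 members, 19 to 29 without single libraries, 200 at equal totals and 96 with quantiles. It called 19 with an untrended prior variance, 11 with the 2 stages only and 48 with edgeR. Over all 19234 genes this contrast called 15041, 14427 to 15098 without single libraries, 16280 at equal totals and 14167 with quantiles. It called 14916 of all genes with the untrended prior, 14469 with the 2 stages only and 15135 with edgeR. The cause of the moves among tests was not tested. Samples of the same replicate number did not deviate together in all stages, so the numbers were not taken as a pairing. Their correlations were -0.09 to 0.39, above 0.1 in 9 of 26 pairs. All pairs of replicate 1 libraries among stages 1, 2, 3 and 5 were above 0.1, at 0.14 to 0.39. Replicate 1 is the library with a title code of its own in these stages. Replicate numbers are those of the titles, where the stage 4 libraries are 1 and 2; their library names number them 2 and 3, which would change which stage 4 pairs share a number and the block. With the replicate block the counts were 26 and 30, beside 16814 and 15211 of all 19234 genes. The SDs of the 33 named genes changed by less than 0.116, the members' median SD within stages, in 618 of 693 comparisons. Of the other 75, 60 were at equal totals with or without the abundant genes. The limit of 0.116 exceeds the SD of each of the 10 lowest members. A change below it can thus be large beside the SD itself, and the count does not show that the SDs were unchanged.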
